A study of Mus musculus with 12 samples.

Results

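Leukocyte adhesion molecules and integrins were followed in mouse macrophages through 10 genes. They were taken by name, with earlier results of these data known, as Icam1, Vcam1, Itgal, Itgam, Itgax, Itgb2, Itga4, Itgav, Itgb1 and Cd44. All 10 of them were found among the 43278 gene symbols of the RNA sequencing table. The cells were thioglycolate-elicited peritoneal macrophages (PMφs) from wild-type C57BL/6J mice, and each of 4 groups held 3 libraries. Control PMφs were given neither agent. The oxLDL PMφs had spent 24 h with human medium oxidized low-density lipoprotein at 100 µg/ml, a lipoprotein that macrophages take up and store as lipid. The LPS PMφs were given ultrapure lipopolysaccharide, a bacterial ligand of TLR4, at 10 ng/ml, and the oxLDL+LPS PMφs were given it after the 24 h with oxLDL. The methods name stimulation with LPS for up to 3 h in one place and up to 6 h in another, and the time used for these 12 cultures is not given in the sources used here. In every group the mice had received 4% aged thioglycolate, the lavage was made on day 4, and the adherent cells were used after 18 h of culture. Littermates of both sexes gave the cells, which were mixed before they were split into the 4 groups, so a library stands for a pool of mice. The labels do not say what separates the 3 replicates of a group, so the p-values measure the spread between these libraries.

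Values are normalized counts, that is, reads per gene that the authors had divided by 1 factor per library and rounded. They summed to between 17152972 and 26384551 per library, from a number of reads that the spacing of the values puts between 16700000 and 26200000, and the 6 libraries with LPS, at 22071853 or more, had the 6 highest sums. The 8 macrophage markers of the list used summed to 224110 to 340960 normalized counts per library, with Adgre1, the F4/80 antigen, listed as Emr1. Lyz2 made up most of these sums, at 157225 to 215646, and Cd163 was low, at 2 to 25 per library. Of the 6 neutrophil markers, Ly6g was at 0 in every library, while Mmp8 was at 131 to 1661 and Cxcr2 at up to 43. The 6 dendritic cell markers summed to 60 to 104 in control and 112 to 142 with LPS, with Flt3 at 6 or below in every library and Zbtb46, the highest of them with LPS, at 65 to 84 there. Fibroblast markers were not absent: the 6 genes of that list, collagens among them, summed to between 5311 and 31312, highest in replicate 1 and lowest in replicate 3 of each group. Mesothelial markers, 5 genes, summed to between 153 and 932. In RNA from whole cultures, fewer cells of a type and less RNA per cell cannot be told apart.

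Integrins are receptors made of an α and a β chain that tie a cell to the matrix or to other cells. On leukocytes the β2 chain, encoded by Itgb2, pairs with αL (Itgal) to form LFA-1, with αM (Itgam) to form Mac-1 and with αX (Itgax) to form CD11c/CD18, while β1 (Itgb1) pairs with α4 (Itga4) to form VLA-4. ICAM-1 is a counter-receptor of LFA-1 and Mac-1, and VCAM-1 is one of VLA-4. The αv chain (Itgav) pairs with several β chains and binds matrix proteins and latent TGF-β, and CD44 is the main cell surface receptor of hyaluronan. These molecules are best known for the capture and firm arrest of leukocytes on inflamed endothelium, and macrophages carry both sides of several of the pairs.

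The bases just before the transcription start were searched for letters read by factors known to act in macrophages or after TLR4, and 4 of the windows are shown because they differ in matches while their genes differ in response. Windows of 250 bases were found in RefSeq (GRCm38.p6) for 7 of the 10 genes, but not for Vcam1, Itgal and Itgb2. The letters searched on both strands were GGNNNTTCC for a κB site, bound by NF-κB, TGANTCA for an AP-1 site, GAAA repeated after any 2 bases for an ISRE, read by interferon regulatory factors, and AGGAAG for an ETS site, read by factors such as PU.1. They occurred in 15.7%, 6.75%, 2.98% and 29.5% of all 32851 windows of this length. Capitals mark the κB and AP-1 matches, and not the ETS ones, in the windows of Icam1 at chr9:21015690-21015939, Itgb1 at chr8:128685404-128685653, Itgax at chr7:128129300-128129549 and Itga4 at chr2:79255176-79255425, all on the plus strand.
Icam1: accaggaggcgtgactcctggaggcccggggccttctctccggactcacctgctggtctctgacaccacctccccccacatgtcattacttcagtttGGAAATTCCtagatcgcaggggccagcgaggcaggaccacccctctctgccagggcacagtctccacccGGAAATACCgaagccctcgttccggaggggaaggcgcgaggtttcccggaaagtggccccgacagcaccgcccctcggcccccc
Itgb1: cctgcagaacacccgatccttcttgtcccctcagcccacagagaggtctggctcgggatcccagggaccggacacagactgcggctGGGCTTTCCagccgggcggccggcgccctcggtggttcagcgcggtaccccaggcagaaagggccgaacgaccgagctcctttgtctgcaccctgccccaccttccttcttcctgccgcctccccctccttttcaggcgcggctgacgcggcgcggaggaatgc
Itgax: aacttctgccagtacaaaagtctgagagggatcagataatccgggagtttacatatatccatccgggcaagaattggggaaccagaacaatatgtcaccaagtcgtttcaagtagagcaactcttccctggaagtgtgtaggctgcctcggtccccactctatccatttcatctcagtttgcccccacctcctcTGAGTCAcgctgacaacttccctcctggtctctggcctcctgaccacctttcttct
Itga4: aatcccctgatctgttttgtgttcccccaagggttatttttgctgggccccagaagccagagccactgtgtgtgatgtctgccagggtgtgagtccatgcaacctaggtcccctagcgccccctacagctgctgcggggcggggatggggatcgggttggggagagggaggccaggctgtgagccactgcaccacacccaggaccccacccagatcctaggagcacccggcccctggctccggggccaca
The Icam1 window held a match at bases −153 to −145 from the start, GGAAATTCC, which fits the letters searched on both strands, and another on the minus strand at −84 to −76. Itgb1 had 1 κB match, GGGCTTTCC at −164 to −156, and 2 ETS matches on the minus strand, at −63 to −58 and −56 to −51. The Itgax window held the sole AP-1 match of the 7, TGAGTCA at −56 to −50, and the Itga4 window held none of the 4 motifs. Among the 7 genes, 2 had a κB match, 1 an AP-1 match, 0 an ISRE match and 4 (Itgam, Itgav, Itgb1 and Cd44) an ETS match. A match describes the letters of the window and is not evidence of binding.

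Levels per kilobase use all annotated exons of a gene merged, from 3.05 kb for Itgb2 to 13.98 kb for Itga4. A gene with exons that these cells do not use is therefore set too low. On this scale the β2 chain had the highest level of the 10 genes in control PMφs, at a mean of 12987 normalized counts per kb. It was followed by Itgb1 at 3224, Itgax at 2126, Itgam at 1504 and Cd44 at 977 per kb, each apart from the next in its range over 3 libraries. Itgav at 278 and Itgal at 256 per kb overlapped in range. Icam1 came next at 116, then Itga4 at 54.9 and, lowest, Vcam1 at 11.5 per kb. With oxLDL alone the order of means per kb was the same. With LPS, Icam1 at 6160 per kb stood beside Itgb1 at 6289, their ranges overlapping, and Cd44 (2784), Itgal (2260), Itgax (2164) and Itgam (1528 per kb) formed a run in which each overlapped the next. Itgav at 582, Vcam1 at 440 and Itga4 at 302 per kb closed the LPS order, again overlapping from one to the next.

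**Figure D1:**
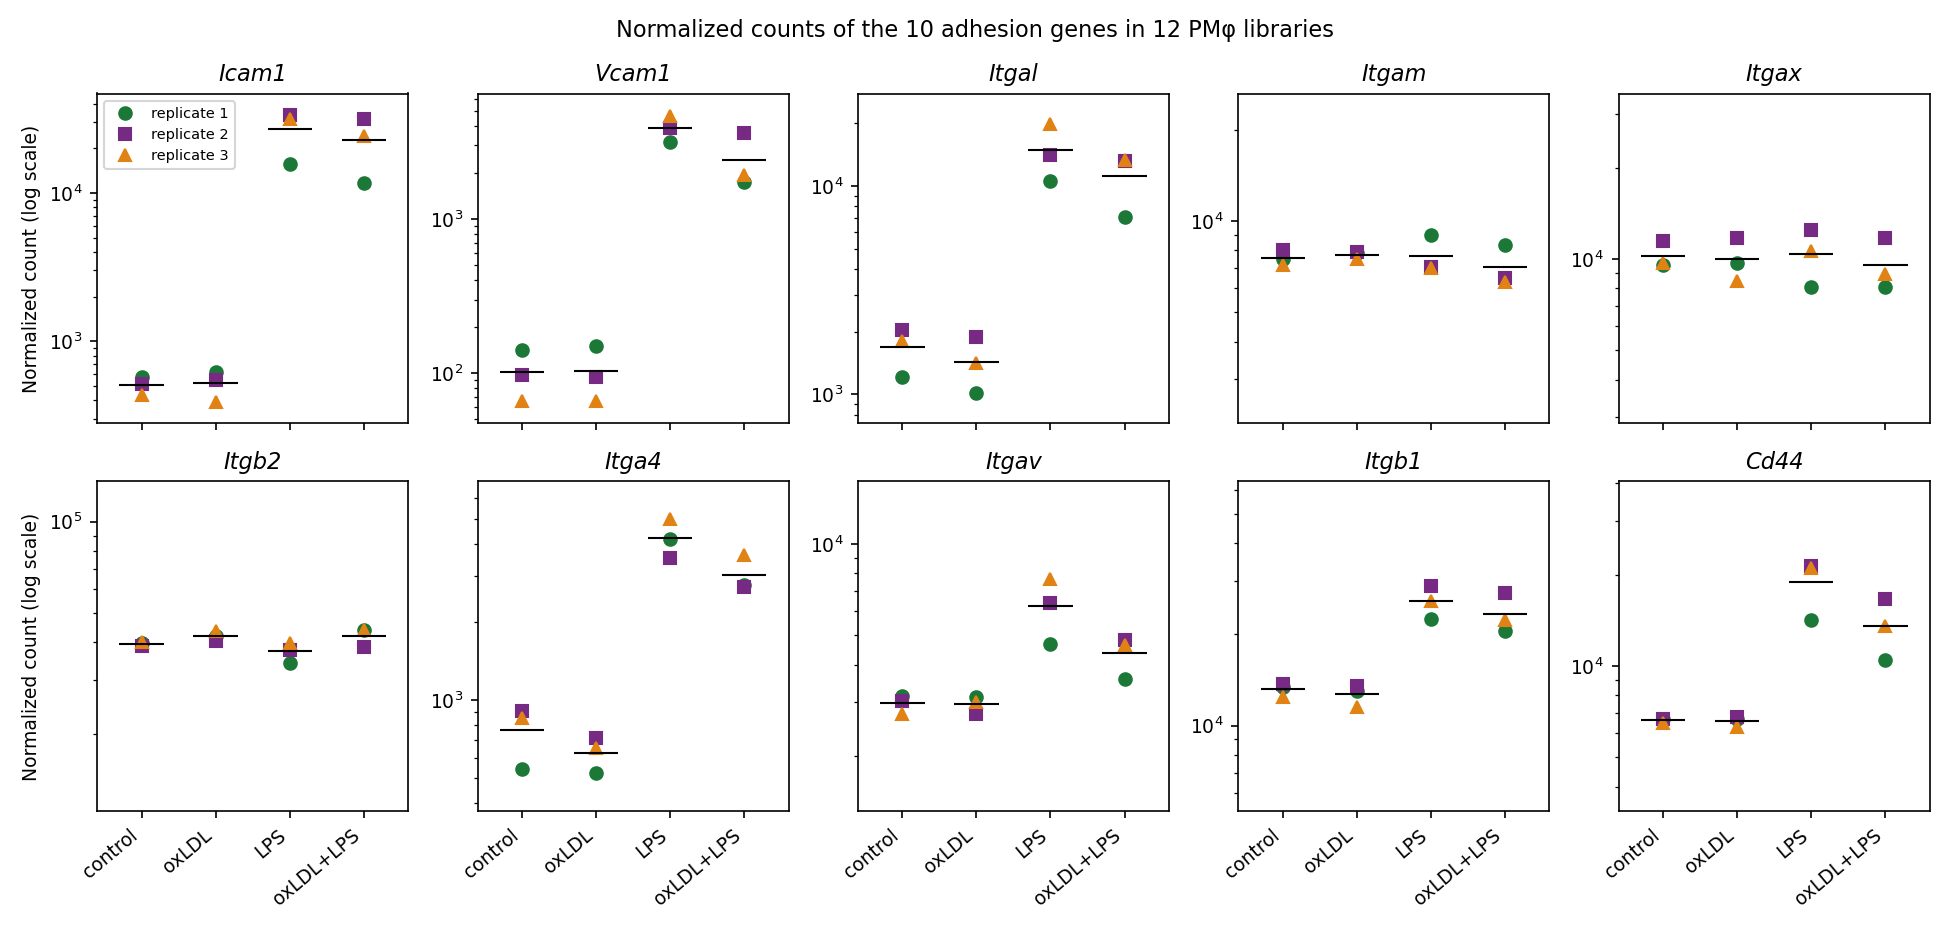
Normalized counts (log scale) of each of the 10 genes in the 12 libraries, by group on the horizontal axis, with symbols for the replicate number and a bar at the mean of the 3 libraries. For Icam1, Vcam1, Itgal, Itga4, Itgav, Itgb1 and Cd44 the 6 libraries with LPS lie above the 6 without, and Itgam, Itgax and Itgb2 overlap between groups with and without LPS.

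The first comparison asks what LPS did in PMφs without oxLDL. Of the 10 genes, 7 rose (Icam1, Vcam1, Itgal, Itga4, Itgav, Itgb1 and Cd44) and 0 fell, where 31.4% of all 13006 genes tested rose and 30.3% fell at an adjusted p below 0.1. The median change of the 10 was 1.26 on the log2 scale, against −0.00 over all genes. The same 7 had LPS values that all lay above the control values, which held for 32.1% of genes tested. Since the 10 were chosen with earlier results of these data known, these shares describe them and do not test them as a set.

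The counter-receptors moved most. Icam1 (chr9:21015985-21028817, plus strand of GRCm38, as for all gene positions here) stood at 572, 516 and 434 normalized counts in the control libraries 1 to 3. In the LPS libraries it stood at 15701, 33512 and 31359. All 3 LPS libraries were far above all control libraries, with replicate 1 the lowest of them. The log2 fold change was 5.66 ± 0.28 (SE), a 50.4-fold rise (limma, adjusted p = 2.66e-06). The other counter-receptor, Vcam1 (chr3:116109949-116129688, minus strand), had 142, 97 and 66 in control and 3147, 3896 and 4654 with LPS. The groups again lay far apart, and the control values fell in the order in which the fibroblast marker sums did (24535, 17118 and 5667 in control 1 to 3), while the LPS values did not (31312, 14668 and 6131). The sums of the 4 endothelial markers, 285, 416 and 384 in control and 499, 477 and 707 with LPS, did not overlap either. Kdr made up most of these sums, at 271, 405 and 371 in control and 456, 406 and 674 with LPS. Cdh5 was at 7 to 9 in control and 30 to 64 with LPS. Tie1 was at 2 to 5 in control and 2 to 4 with LPS, and Tek at 3 or below. The part of both marker lists in the result was not tested. Vcam1 rose by 5.30 ± 0.27 on the log2 scale, or 39.3-fold (limma, adjusted p = 3.33e-06).

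Itgal (chr7:127296260-127335138, plus strand), the αL chain of LFA-1, had 1208, 2045 and 1801 normalized counts in control and 10536, 14127 and 19881 with LPS. No LPS library came near a control library, and the rise was 3.13 ± 0.27 on the log2 scale, or 8.72-fold (limma, adjusted p = 4.45e-05). LFA-1 is also carried by lymphocytes, and of the 6 T cell markers Cd3e, Cd3d, Cd3g, Trac and Cd8a stayed below 10 in all 12 libraries, while Lck, a Src family kinase, was at 16 to 18 in control and 102 to 234 with LPS. The NK cell markers, 4 genes, were also below 10 throughout. The 5 B cell markers summed to 42, 47 and 59 in control and 86, 41 and 74 with LPS. The part of lymphocytes in the rise of Itgal was not tested.

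The αM and αX chains and the shared β chain did not pass the test, except under a scaling to equal totals given below their values. Itgam (chr7:128062640-128118491, plus strand) had 7501, 8027 and 7133 in control and 9011, 7025 and 6993 with LPS, so the groups overlapped. GENCODE now places a gene on the same strand, Gm49368, over 68.7% of the exonic bases of Itgam, and the table holds no such symbol. Itgax (chr7:128129547-128150657, plus strand), often used as a marker of dendritic cells, had 9513, 11427 and 9694 in control and 8075, 12460 and 10648 with LPS. Here the LPS libraries reached both lower and higher than the control libraries. Itgb2 (chr10:77530252-77565708, plus strand) had 39795, 39024 and 40094 in control and 34294, 37853 and 39818 with LPS, 2 of the LPS values lying below every control value. Their log2 fold changes were 0.01 ± 0.12, 0.01 ± 0.17 and −0.09 ± 0.13 (SE), with limma adjusted p of 0.932, 0.973 and 0.585. Scaling each library to equal totals, added after the sums had been seen, moved the median of all genes to −0.48, and all 3 chains, at −0.47 for Itgam, −0.48 for Itgax and −0.57 for Itgb2, were then called lower (adjusted p = 0.0306, 0.0251 and 0.00181), as were 7189 genes against 2207 higher, in place of 3938 and 4087.

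The chains of VLA-4 rose together. Itga4 (chr2:79255426-79333123, plus strand) had 542, 907 and 852 normalized counts in control and 4169, 3529 and 4967 with LPS. The lowest LPS library held several times the highest control library, and the rise was 2.48 ± 0.21 on the log2 scale, or 5.58-fold (limma, adjusted p = 4.62e-05). On the opposite strand Cerkl covers 8.0% of its exonic bases and summed to 143 over the 12 libraries. Itgb1 (chr8:128685654-128733200, plus strand) had 13370, 13705 and 12394 in control and 22486, 28844 and 25672 with LPS, with a wide gap between the groups. It rose 1.94-fold (0.96 ± 0.13 on the log2 scale, limma adjusted p = 4.62e-04).

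Itgav (chr2:83724397-83806916, plus strand) had 3162, 3040 and 2755 in control and 4694, 6383 and 7673 with LPS, with replicate 1 the lowest LPS library but still above all control libraries. Its rise was 1.04 ± 0.17 on the log2 scale, or 2.05-fold (limma, adjusted p = 0.00155). Cd44 (chr2:102811141-102901665, minus strand) had 6688, 6679 and 6498 in control, a narrow range, and 14179, 21383 and 21032 with LPS. It rose 2.80-fold (1.49 ± 0.17 on the log2 scale, limma adjusted p = 1.86e-04). The 7 rises passed the test under every alternative tried in this comparison, equal totals included.

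**Figure D2:**
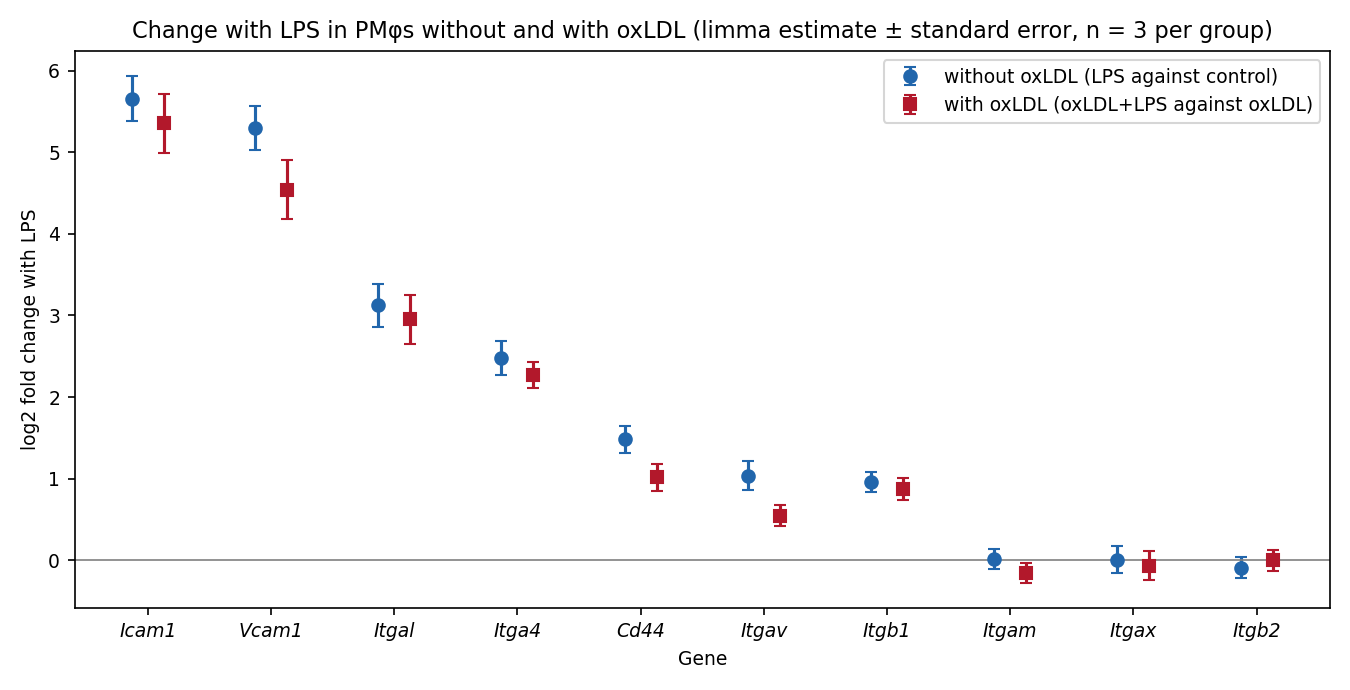
log2 fold change with LPS (limma estimate, bars ± 1 standard error, 3 libraries per group) of the 10 genes in PMφs without oxLDL (circles) and with oxLDL (squares). Icam1 and Vcam1 are at 5.66 and 5.30 without oxLDL and at 5.35 and 4.54 with it, while Itgam, Itgax and Itgb2 lie within 0.16 of 0 in both, a position that depends on the scaling, since equal totals put all 3 below 0.

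The second comparison asks the same of PMφs with accumulated oxLDL. Here 7 of the 10 genes rose as well and 0 fell, where 28.1% of 12883 genes tested rose and 26.3% fell, and the genes were the same 7. The median change of the 10 genes was 0.94 on the log2 scale, against −0.02 over all genes.

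Icam1 went from 621, 546 and 390 normalized counts in the oxLDL libraries to 11721, 31811 and 24389 in the oxLDL+LPS libraries, a 40.9-fold rise (5.35 ± 0.36 on the log2 scale, limma adjusted p = 2.64e-05). Vcam1 went from 150, 94 and 66 to 1736, 3632 and 1923, or 23.3-fold (4.54 ± 0.36, adjusted p = 6.25e-05). For both genes the oxLDL+LPS libraries spread over more than a factor of 2, with replicate 2 highest, and still lay far above the oxLDL libraries. Itgal went from 1015, 1879 and 1412 to 7078, 13230 and 13378, or 7.74-fold (2.95 ± 0.30, limma adjusted p = 2.07e-04). Itga4 went from 522, 712 and 652 to 2780, 2716 and 3633, or 4.83-fold (2.27 ± 0.16, adjusted p = 2.92e-05). Neither gene had overlapping groups.

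Cd44, the hyaluronan receptor, went from 6665, 6796 and 6290 to 10498, 16597 and 13565, or 2.02-fold (1.02 ± 0.16 on the log2 scale, limma adjusted p = 0.00185). Itgb1 went from 13052, 13504 and 11539 to 20471, 27319 and 22281, or 1.83-fold (0.87 ± 0.14, adjusted p = 0.00167). Itgav had the smallest of the 7 rises, from 3119, 2748 and 3020 to 3582, 4838 and 4644, or 1.46-fold (0.55 ± 0.13, adjusted p = 0.0105). The lowest oxLDL+LPS library of Itgav lay close above the highest oxLDL library, and with equal totals, which moved the median of all genes to −0.40, its change was 0.15 (adjusted p = 0.271).

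The chains that did not pass the test without oxLDL did not pass it here. Itgam had 7815, 7879 and 7490 with oxLDL and 8313, 6473 and 6269 with both agents (log2 fold change −0.15 ± 0.12, limma adjusted p = 0.351). Itgax had 9713, 11714 and 8472 against 8076, 11736 and 8895 (−0.06 ± 0.17, adjusted p = 0.792), and Itgb2 had 41984, 40561 and 43628 against 43797, 38533 and 43847 (−0.00 ± 0.13, adjusted p = 0.991). All 3 pairs of groups overlapped. With equal totals Itgam (−0.54), Itgax (−0.45) and Itgb2 (−0.39) were called lower, with 6608 genes lower and 2052 higher in place of 3389 and 3626. Without oxLDL+LPS replicate 1, Itgam was called lower as well, at −0.28 (adjusted p = 0.0389).

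The 3 α chains pair with the same β chain, so the make-up of their transcripts was compared as well. Of the summed level per kb of Itgal, Itgam and Itgax, Itgal made up 6.56% ± 1.33 (SD, n = 3) in control, 5.67% ± 1.34 with oxLDL, 37.4% ± 7.31 with LPS and 33.0% ± 7.82 with both. In control it was 5.03, 7.26 and 7.39%, and with LPS 31.6, 35.0 and 45.6%, so that the groups did not overlap. The difference of 30.8 percentage points had an exact two-sided permutation p of 0.1, the smallest that 3 against 3 libraries allow, and the 27.4 points between oxLDL+LPS and oxLDL had the same. Between oxLDL and control, and between oxLDL+LPS and LPS, the exact p was 0.5 and 0.6. Within pairs of the same replicate number, compared after the values had been seen, the share was lower with oxLDL in all 3 pairs without LPS (4.14 to 6.66% against 5.03 to 7.39%), with an exact paired permutation p of 0.25, the smallest that 3 pairs allow. With LPS it was lower in 2 of the 3 pairs. The level per kb of Itgb2 was 3.36 ± 0.329 times the sum of the 3 α transcripts in control and 2.07 ± 0.130 times with LPS (n = 3 each, exact permutation p = 0.1). It was 3.63 ± 0.514 times with oxLDL and 2.75 ± 0.529 times with both, and these ranges overlapped (exact permutation p = 0.2). In pairs it was higher with oxLDL in all 3 without LPS and in all 3 with it, each at the smallest exact paired p of 0.25. Since these are ratios within a library, scaling does not change them, and they describe transcripts and not receptors at the surface. Their size does depend on the merged exonic lengths.

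**Figure D3:**
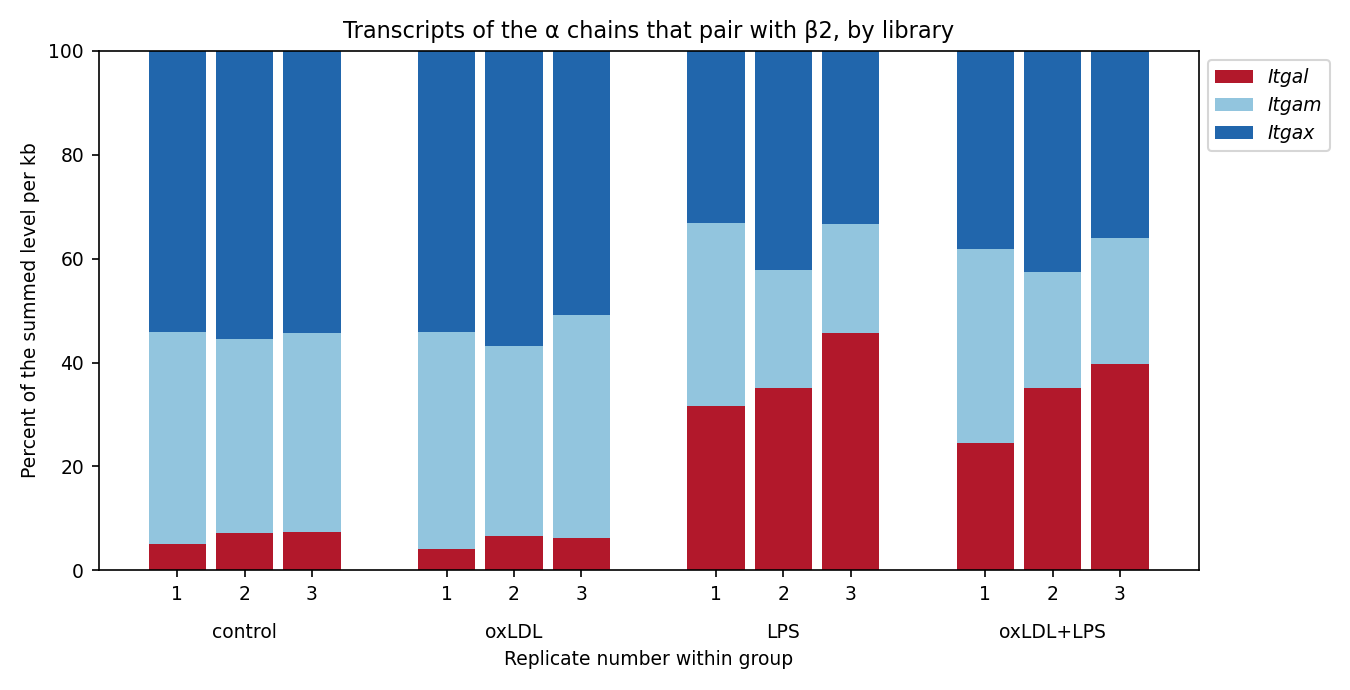
Percent of the summed level per kb of Itgal (red), Itgam (light blue) and Itgax (dark blue) in each of the 12 libraries, by group and replicate number. Itgal takes 4.14 to 7.39% of the sum in the 6 libraries without LPS and 24.4 to 45.6% in the 6 with LPS.

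The third comparison asks what oxLDL accumulation did without LPS. Of the 10 genes 0 passed the test, as did 0% of the 12734 genes tested (limma), and at an unadjusted p below 0.05 there were 0 of the 10 and 379 of all genes. The median change of the 10 was −0.01, as it was over all genes. Changes ran from −0.26 for Itga4 (SE 0.21) to 0.08 for Itgb2 (SE 0.09). Itgb2 was the sole member whose groups did not overlap, its oxLDL libraries (40561 to 43628) all lying above its control libraries (39024 to 40094), which held in either direction for 7.69% of genes.

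Libraries with the same replicate number deviated together, and with the number as a block 2 of the 10 genes were lower with oxLDL, where 2.91% of genes were lower and 4.70% changed in all. Itgal was lower by −0.25, −0.12 and −0.35 on the log2 scale in numbers 1, 2 and 3 (mean −0.24, limma adjusted p = 0.0349 with the block). Itga4 was lower by −0.05, −0.35 and −0.39 (mean −0.26, adjusted p = 0.0779 with the block). All 3 pairs went the same way for both genes, but the changes are small beside those with LPS. Leaving out 1 number left 1, 0 and 2 of the 10 genes called in the blocked fit without numbers 1, 2 and 3.

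The fourth comparison sets oxLDL+LPS against LPS, and so asks how far accumulated oxLDL altered the level reached with LPS. Without the block 0 of the 10 genes and 0% of 12769 genes tested passed the test (limma), while at an unadjusted p below 0.05 there were 3 of the 10 (Vcam1, Itga4 and Itgav) and 890 of all genes. The estimate was below 0 for 9 of the 10, with a median of −0.35 against −0.01 over all genes. With the block 5 of the 10 genes (Vcam1, Itgal, Itga4, Itgav and Cd44) were lower and 0 higher, where 8.75% of genes were lower and 13.2% changed in all.

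Itga4 was lower by −0.58, −0.38 and −0.45 on the log2 scale in numbers 1, 2 and 3 (mean −0.47, limma adjusted p = 0.0106 with the block and 0.699 without). Itgav was lower by −0.39, −0.40 and −0.72 (mean −0.50, adjusted p = 0.0138 with the block and 0.705 without). For these 2 genes no pair stood apart from the others in sign and none was near 0. Cd44 was lower by −0.43, −0.37 and −0.63 (mean −0.48, limma adjusted p = 0.024 with the block and 0.732 without). Vcam1 was lower by −0.86, −0.10 and −1.27 (mean −0.74, adjusted p = 0.0372 with the block and 0.705 without), and Itgal by −0.57, −0.09 and −0.57 (mean −0.41, adjusted p = 0.0612 with the block and 0.808 without). In these last 2 genes the difference was in numbers 1 and 3, and number 2 was close to 0.

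Itgb2 was above 0 in all 3 pairs (0.35, 0.03 and 0.14) without passing the test, with the block (adjusted p = 0.456) or without it (0.826). Icam1 differed by −0.42, −0.08 and −0.36 (limma adjusted p = 0.16 with the block), Itgb1 by −0.14, −0.08 and −0.20 (0.46) and Itgam by −0.12, −0.12 and −0.16 (0.342), all below 0 in each pair and not called. Itgax differed by 0.00, −0.09 and −0.26 (0.477). The number called in the blocked fit was 0 without number 1, 6 without number 2 and 0 without number 3, so that leaving out number 1 or 3 ended the calls, in fits with 1 residual degree of freedom. The 2 fibroblast marker sums of a pair, which move with the replicate number, were 31312 and 18169 for LPS and oxLDL+LPS in number 1, 14668 and 16167 in number 2 and 6131 and 5311 in number 3; their part in the differences was not tested.

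**Figure D4:**
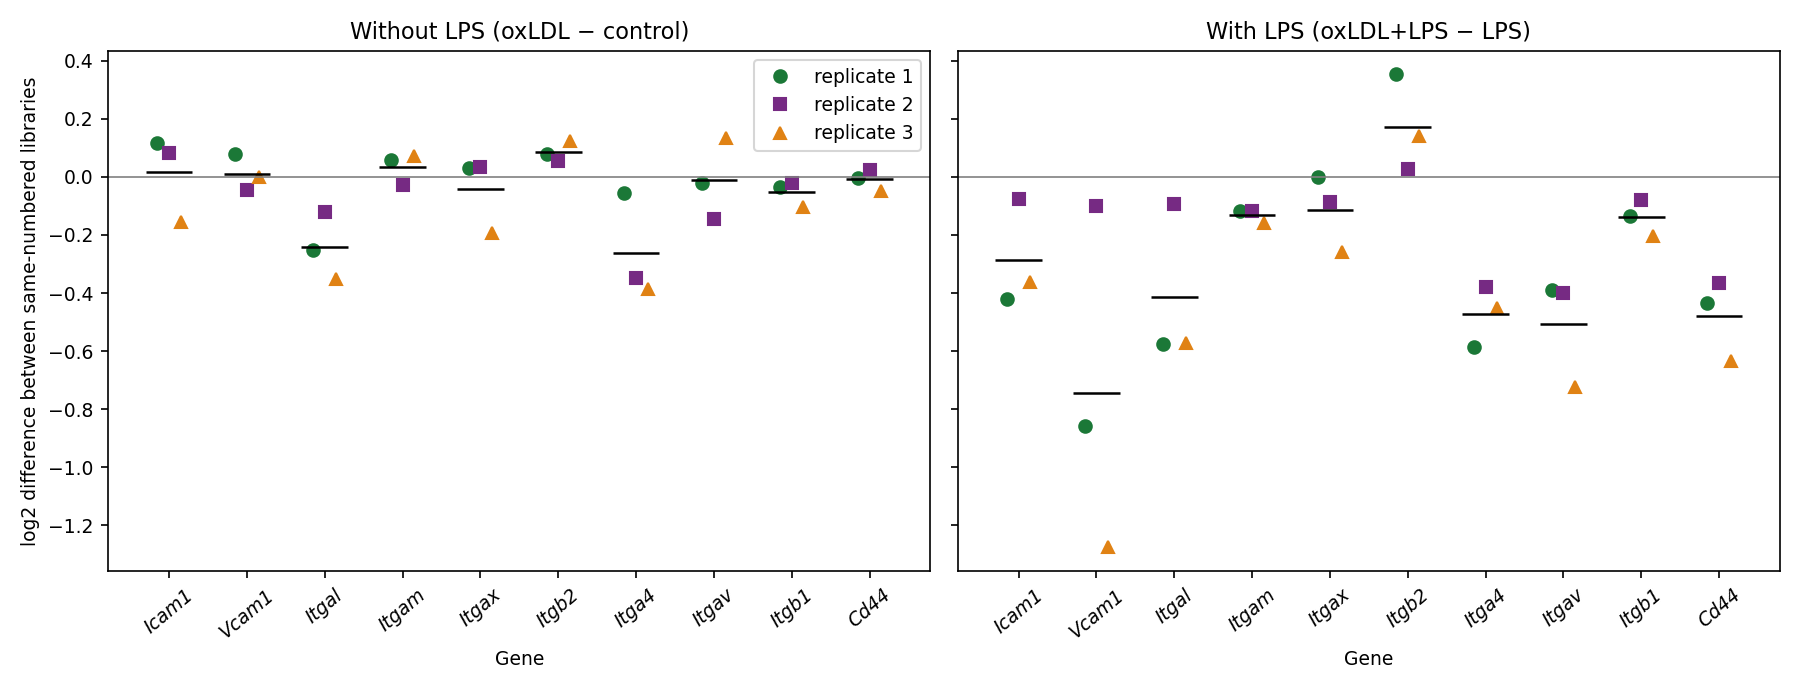
log2 difference between libraries of the same replicate number, oxLDL minus control (left) and oxLDL+LPS minus LPS (right), for the 10 genes, with a bar at the mean of the 3 pairs. With LPS, 8 of the 10 genes are below 0 in all 3 pairs and Itgb2 is above 0 in all 3; without LPS only Itgal, Itga4 and Itgb1 are below 0 in all 3.

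Whether oxLDL acted differently with and without LPS was tested as an interaction over all 12 libraries. It was called for 0 of the 10 genes and 0% of 13465 genes tested (limma), both without and with the block. At an unadjusted p below 0.05 there were 0 of the 10 and 416 of all genes without the block, and 2 of the 10 and 967 with it. Those 2 were Itgav, at −0.49 on the log2 scale (limma adjusted p = 0.679 with the block), and Cd44, at −0.47 (adjusted p = 0.674). A larger effect of oxLDL in the presence of LPS was therefore not shown for any of the 10 genes.

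The integrin subunit genes outside the 10 moved in both directions with LPS, as genes overall did. Of 19 such genes 12 could be tested, and 5 rose and 4 fell, where 31.4% of all genes tested rose and 30.3% fell, shares to be read beside the counts of the lists that follow. The β partners of αv parted: Itgb8, whose product with αv activates latent TGF-β, rose from 39, 28 and 27 normalized counts to 670, 725 and 1613, by 4.85 ± 0.34 on the log2 scale (limma, adjusted p = 1.59e-05). Itgb3, the β chain of the vitronectin receptor, fell from 1597, 1298 and 1269 to 151, 242 and 203, by −2.82 ± 0.18 (adjusted p = 1.13e-05). Itgb5, another partner of αv, fell from 5851, 6333 and 7418 to 2186, 1908 and 2590, by −1.56 ± 0.14 (adjusted p = 5.94e-05). In none of the 3 genes did the groups overlap.

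Among the partners of β1, Itga5, the α chain of the fibronectin receptor, rose from a mean of 4916 to 17921 normalized counts (log2 fold change 1.84, limma adjusted p = 5.30e-05), and Itga9 rose from 160 to 496 (1.63). Itga6, a laminin receptor chain, fell from 2517 to 647 (−1.98, adjusted p = 5.86e-05). With oxLDL present, 4 of 11 tested subunit genes rose and 4 fell with LPS, where 28.1% of all genes rose and 26.3% fell. Itgb8 (4.63), Itgb3 (−2.75), Itgb5 (−1.62), Itga5 (1.65), Itga9 (0.96) and Itga6 (−1.86) kept their direction. Itgb7, which pairs with α4, fell in both (−0.60 and −0.49). oxLDL itself gave 0 calls in this list without the block. With the block, 2 genes were lower in oxLDL than in control, Itgb7 by −0.22 and Itga5 by −0.19 (limma, adjusted p = 0.0344 and 0.0369), where 2.91% of all genes were lower. In the blocked fit 4 genes were lower in oxLDL+LPS than in LPS, where 8.75% of all genes were lower, Itga9 by −0.65 and Itgb8 by −0.48 among them (limma, adjusted p = 0.0258 and 0.0224 with the block).

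**Figure D5:**
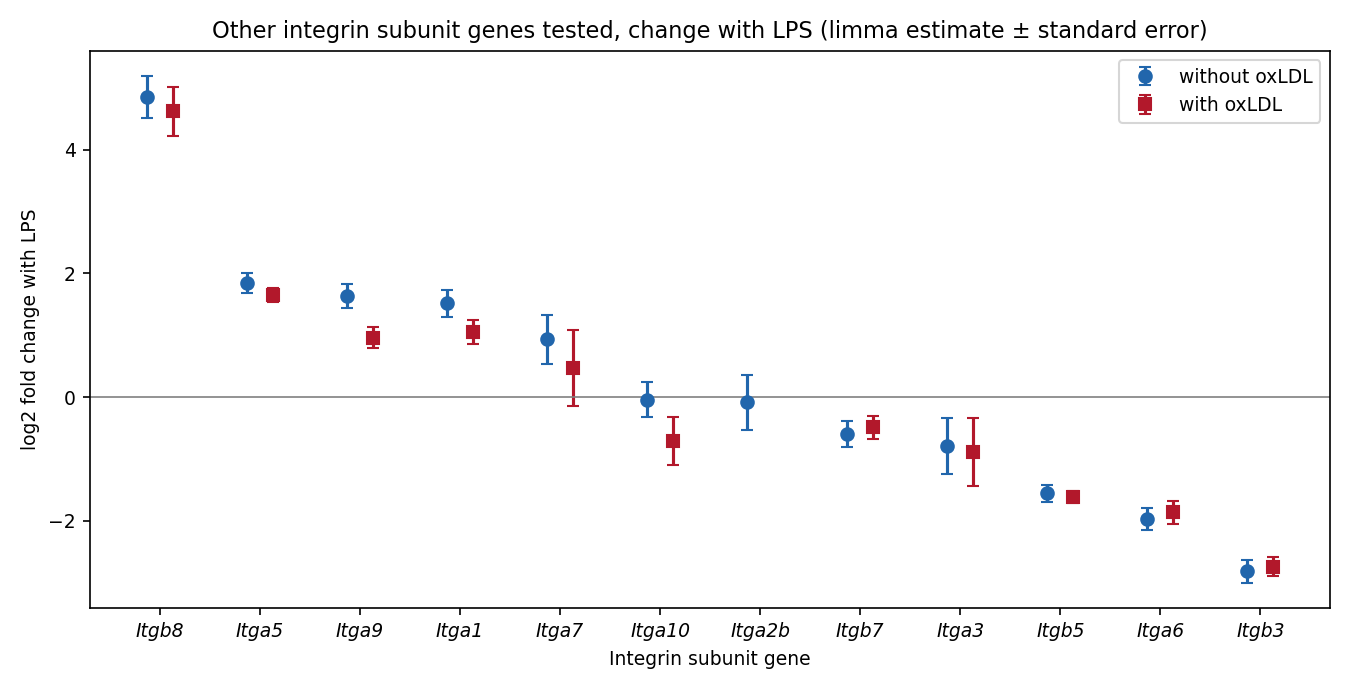
log2 fold change with LPS (limma estimate, bars ± 1 standard error) of the integrin subunit genes outside the 10 that could be tested, without oxLDL (circles) and with oxLDL (squares; Itga2b was not tested there). Itgb8 is at 4.85 and 4.63 and Itgb3 at −2.82 and −2.75, the ends of the plot.

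Of the genes for proteins that link integrins to the cytoskeleton or switch them to their active form, 28 were tested. With LPS 13 rose and 4 fell, where 31.4% of all genes rose and 30.3% fell. With equal totals 11 were higher and 11 lower, where 2207 and 7189 of all 13006 genes were. In oxLDL PMφs 14 rose and 3 fell with LPS, where 28.1% of all genes rose and 26.3% fell. There 11 were higher and 10 lower with equal totals, where 2052 and 6608 of all 12883 genes were. Lyn and Src, Src family kinases that act downstream of β2 integrins, rose by 2.21 and 3.44 on the log2 scale (limma, adjusted p = 1.50e-06 and 8.46e-06). Zyx, an adhesion site protein, rose by 1.89, Rap1b, a GTPase that activates integrins, by 1.68 and Lims1, which binds ILK, by 1.03. Rassf5, the Rap effector of lymphocyte adhesion, fell by −1.71 (adjusted p = 1.74e-04), and Tln1, talin, at means of 16612 and 16938 normalized counts was at 0.02 and was not called.

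Of 16 other adhesion receptors tested, 7 rose and 2 fell with LPS, where 31.4% of all genes rose and 30.3% fell. In oxLDL PMφs 6 rose and 2 fell, where 28.1% of all genes rose and 26.3% fell. Cd47, a binding partner of integrins and of thrombospondin, rose from 2328, 2295 and 2460 normalized counts to 7811, 7554 and 8385 (1.74 ± 0.09 on the log2 scale, limma adjusted p = 2.66e-06). The junctional molecules F11r and Jam2 rose by 1.94 and 1.59, and Cd151, a tetraspanin, and Emb fell by −0.78 and −0.73. With equal totals 4 receptors were higher and 6 lower with LPS, where 2207 and 7189 of all 13006 genes were.

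Matrix ligands of integrins were tested for 14 genes. With LPS 4 rose and 0 fell without the block, where 31.4% of all genes rose and 30.3% fell. With the block 7 rose and 0 fell, where 4501 of 13006 genes rose and 4433 fell. In oxLDL PMφs 2 rose and 0 fell without the block, where 28.1% of all genes rose and 26.3% fell. There 6 rose and 0 fell with it, where 4128 of 12883 genes rose and 4046 fell. Thbs1, thrombospondin-1, rose from 1209, 1548 and 944 to 20497, 8622 and 11778 normalized counts (3.40 ± 0.31 on the log2 scale, limma adjusted p = 6.82e-05). Spp1, osteopontin, a ligand of αv and α4 integrins, rose from 33683, 32366 and 20648 to 62731, 66591 and 58407 (1.15 ± 0.21, adjusted p = 0.00237), and in oxLDL PMφs its change was 0.56 (adjusted p = 0.263 without the block and 0.0332 with it). Col4a2 and Fbn1, which fibroblasts also make, were at 0.86 and 1.45 (adjusted p = 0.081 and 0.089) beside fibroblast marker sums of 5667 to 24535 in control and 6131 to 31312 with LPS, whose part was not tested. With equal totals 2 were higher and 1 lower with LPS, where 2207 and 7189 of all 13006 genes were.

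The hyaluronan genes and partners of CD44 included some of the largest changes. Of 15 tested 9 rose and 4 fell with LPS, where 31.4% of all genes rose and 30.3% fell. Of 14 tested in oxLDL PMφs 8 rose and 3 fell, where 28.1% of all genes rose and 26.3% fell. Vcan, versican, a proteoglycan that binds hyaluronan, rose from 113, 135 and 57 to 3980, 3787 and 5171 normalized counts (5.47 ± 0.30 on the log2 scale, limma adjusted p = 4.87e-06). Tmem2, a cell surface hyaluronidase, rose from 602, 670 and 539 to 3600, 3216 and 4370 (2.62 ± 0.14, adjusted p = 3.67e-06), while Hyal1, the lysosomal one, fell from 416, 595 and 455 to 85, 78 and 65 (−2.66 ± 0.18, adjusted p = 1.36e-05). Has1, a hyaluronan synthase, was at 0, 1 and 0 in control and 60, 69 and 116 with LPS. Srgn, serglycin, and Msn, moesin, which binds the tail of CD44, rose by 2.26 and 1.34. In the blocked fit 6 genes of this list were lower and 1 higher in oxLDL+LPS than in LPS, where 8.75% of all genes were lower, with Tmem2 at −0.67, Vcan at −0.93 and Cd74, a CD44 partner in MIF signalling, at −0.89 (limma, adjusted p = 0.00619, 0.0203 and 0.0119 with the block, 0.699 for all 3 without). Cd74 was also lower in oxLDL than in control, by −0.56 (limma, adjusted p = 0.0253 with the block and 1 without).

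Sheddases cut adhesion molecules from the surface. Of 10 tested, 5 rose and 3 fell with LPS, where 31.4% of all genes rose and 30.3% fell. The same counts were found in oxLDL PMφs, where 28.1% of all genes rose and 26.3% fell. Adam17, which cleaves ICAM-1 and VCAM-1, rose from 4294, 5033 and 4158 to 10507, 11778 and 11528 normalized counts (1.33 ± 0.11 on the log2 scale, limma adjusted p = 3.54e-05), and Rhbdf2, the iRhom that brings it to the surface, rose by 2.54 (adjusted p = 1.12e-06). Mmp14, which cleaves CD44, rose from 3546, 2985 and 2055 to 26339, 26433 and 26545 (3.24 ± 0.19, adjusted p = 6.17e-06). Adam8 and Adam10 fell by −1.93 and −0.82 (adjusted p = 1.22e-04 and 1.61e-04), and Adam9 rose by 0.64. With equal totals 4 were higher and 4 lower with LPS, where 2207 and 7189 of all 13006 genes were. Between oxLDL and control 0 genes of the 6 lists were called without the block. With it 3 genes of integrin linkage (Src, Fyb and Tln1), 2 sheddases (Mmp14 and Adam19) and 1 matrix ligand (Fn1) were lower. So was 1 hyaluronan gene (Cd74), beside the 2 integrin subunits named above, and 1 other adhesion receptor (Ninj1) was higher. Of all 12734 genes 371 were lower and 228 higher in that fit. In the blocked fit of oxLDL+LPS against LPS, 2 genes of integrin linkage were higher and 1 lower. Of the other adhesion receptors 2 were higher and 1 lower, of the matrix ligands 1 and 3, and of the sheddases 1 and 3. Of all 12769 genes 563 were higher and 1117 lower there.

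For the 7 genes whose group means spanned more than 1 on the log2 scale, the genes nearest in pattern were found by the root mean square difference of centred log2 values over the 12 libraries, among 13465 genes. Icam1 was nearest to Adora2a, an adenosine receptor gene, at 0.19, then to Traf1 (0.27) and Tlr2 (0.29). Vcam1 was nearest to Vcan (0.27), H2-Q7 (0.28) and H2-Q6 (0.31), the last 2 being MHC class I genes of a family with near-identical copies. Itgal was nearest to Nfkb1 (0.23), Plek (0.23) and A530040E14Rik (0.24), and Itga4 to Rel (0.17), Zfp800 (0.18) and Creb5 (0.18). Nfkb1 and Rel encode NF-κB subunits. Itgav was nearest to Rasa2 (0.12), Ccrn4l (0.13) and Kctd6 (0.13), Itgb1 to Tmbim6, Bak1 and Pofut2 (0.05 to 0.06), and Cd44 to Cd200 (0.09), Rabgef1 (0.09) and Tmod3 (0.11). These distances are descriptions over libraries that share groups and replicate numbers.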

How the data were processed

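RNA was sequenced from 12 PMφ cultures, 3 per group. Per the labels, poly(A) libraries were made with a kit that keeps the strand, and the submitters' processing notes name Trimmomatic 0.32, STAR 2.5.1b, featureCounts and Subread with mm10 (GRCm38); the authors compared groups with DESeq2. Whether counting used the strand is not given in the sources used here. The deposited values are a whole-number signal whose spacing is that of gene counts the authors had scaled by a single factor for each library. The reads were not recovered, so the test planned for scaled values (limma on the log scale) was used and not the one planned for raw counts. Symbols turned into dates by a spreadsheet (25, at most 0.165% of a library) were left out.

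Values were compared with limma 3.58.1 in R 4.3.3 (lmFit, eBayes with a variance trend) on log2(value + 1), so fold changes of low genes are understated. A gene was tested if 3 or more of the libraries in a comparison reached 10, which all 10 members did, and was called at a Benjamini-Hochberg adjusted p below 0.1 over all genes. Each fit held the 6 libraries of its comparison, and the interaction all 12. Same-numbered libraries of different groups deviated together from their group means over 11170 genes (r = 0.305 to 0.733, against at most 0.071 between different numbers), and the methods describe pools split among the groups, so the numbers pair the libraries. The study names no block. The blocked fit is given where it changes a call of the 10 members, and for the lists in the comparisons of oxLDL. For LPS, list counts are without the block, except for the matrix ligands. With it, for instance, 16 linkage genes rose and 5 fell in LPS against control, and 10 other adhesion receptors rose and 2 fell. Of all 13006 genes, 4501 rose and 4433 fell in that fit.

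The members and lists were chosen with earlier results of these data known. The text names the 10 members and, per list and comparison, up to 6 called genes with the smallest p; Itgb7, Tln1, Cd74 and the genes called with the block in oxLDL against control were named after their values were seen, and some genes that the rule names are not reported here. Exonic lengths and gene positions came from GENCODE M21, not the release the authors counted on. Shares per kb were compared by exact permutation (scipy 1.17.1). The fits were tested on simulated data. Alternatives were the block, TMM scaling, other filters on low values (none, or every library at the minimum), a pseudocount of 10, all 12 libraries in each fit, no variance trend, each library left out and, added after seeing the data, equal totals.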

Additional observations from a re-analysis of the deposited data

How the results depend on the processing

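The members that rose with LPS stayed at 7 under every setting, except that equal totals left 6 in oxLDL+LPS against oxLDL. With the replicate block, 2 members were called in oxLDL against control and 5 in oxLDL+LPS against LPS, and the counts were 0 to 2 and 0 to 6 when libraries or numbers were left out; the block changed no other call among the members. Of the members' alternative values 823 kept direction and call, 22 kept direction and gained a call, 1 kept direction and lost it, and 54 changed sign. Of these 54, 0 were called in the main fit, which had no block and the authors' scaling. In the alternative alone 2 were called (Itgam and Itgax in LPS against control, with equal totals). In LPS against control, TMM gave −0.05 for Itgam and −0.06 for Itgax and equal totals −0.47 and −0.48, and in the interaction equal totals gave 0.02 for Itgax and 0.01 for Itgb1. Leaving out libraries, the ranges for oxLDL against control that held both signs were −0.13 to 0.21 for Icam1, −0.30 to 0.29 for Vcam1, −0.01 to 0.08 for Itgam, −0.17 to 0.07 for Itgax, −0.08 to 0.06 for Itgav, −0.10 to 0.01 for Itgb1 and −0.03 to 0.02 for Cd44. Leaving out libraries, the ranges for LPS against control that held both signs were −0.11 to 0.12 for Itgam and −0.13 to 0.18 for Itgax. Leaving out libraries, the ranges for oxLDL+LPS against oxLDL that held both signs were −0.22 to 0.06 for Itgax and −0.03 to 0.06 for Itgb2. Leaving out libraries, the ranges for oxLDL+LPS against LPS that held both signs were −0.64 to 0.13 for Icam1 and −0.29 to 0.03 for Itgax. Leaving out libraries, the ranges for the interaction that held both signs were −0.65 to 0.11 for Icam1, −0.40 to 0.13 for Itgal, −0.24 to 0.07 for Itgax, −0.01 to 0.15 for Itgb2, −0.35 to 0.02 for Itga4 and −0.20 to 0.00 for Itgb1. Vcam1 without LPS, at 66 to 150 normalized counts per library, is the value of a member that depth limits most.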
